A study of Mus musculus with 16 samples.

Results

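Complex I of the mitochondrial respiratory chain (NADH:ubiquinone oxidoreductase) was represented by 36 nuclear genes whose symbols begin with Nduf, and the trimethyl mark of histone H3 lysine 4 (H3K4me3) was read at each of them in mouse hippocampus. For each gene, the H3K4me3 region with the most counts within 2 kb of either end of the gene was taken, over all 12 H3K4me3 libraries. All 36 genes had such a region, and the 36 regions were distinct, out of 35996 regions in the series. By role, 6 of the genes encode core subunits, 9 accessory subunits of the matrix arm and 20 accessory subunits of the membrane arm. The remaining gene, Ndufa4, was first listed with complex I and is now counted with complex IV.

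Complex I takes electrons from NADH, passes them along a flavin and a chain of iron-sulfur clusters in its matrix arm to ubiquinone, and pumps protons through its membrane arm. Its core subunits carry out this catalysis, and those of the membrane arm are encoded by mitochondrial DNA, which lies outside these regions. The accessory subunits surround the core and support assembly and stability. The nuclear subunit genes are active in every cell type of the brain, and H3K4me3 marks active promoters such as theirs. Kdm5c encodes an X-linked demethylase that removes methyl groups from H3K4.

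The study sampled Kdm5c KO mice under standard conditions, Kdm5c KO mice after novelty and the Kdm5c line that the labels call ifKO. Their controls were littermates: WT under standard conditions, WT after novelty, and the controls of the ifKO line (written ifWT here), which like ifKO were sampled in the basal state. Novelty was 1 h alone in a box holding unfamiliar objects. All mice were adult males of 2 to 4 months. KO and WT mice had a mixed F1 background of C57 and 129, whereas ifKO and ifWT mice and the Kdm5C and H3K4me1 libraries were C57BL/6J, so strain and line cannot be told apart between cohorts. The sources used here do not say how ifKO was made. Each group had 2 libraries, each from a separate pool of 2 mice per the series design, so the p values measure the spread between pools. One ifWT library is titled H3K3me3 and was used as H3K4me3 by its antibody label. Kdm5C and H3K4me1 were profiled in 1 KO and 1 WT library each.

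Counts over all regions totalled 18181192 to 30435735 per H3K4me3 library. Levels are given as CPM, region counts scaled to a common library size with TMM (trimmed mean of M values) factors. The targeted gene was not used to check the genotype here, because whether the mark at the end of Kdm5c reports on the deletion was not tested. That end had 60.5 ± 0.479 CPM over the 4 KO libraries, against 68.1 ± 5.08 CPM over the 4 WT libraries (mean ± SD, as for all levels given with ±). This fall passed the test used below (log2 change -0.17, averaged over standard conditions and novelty). It did not pass with the offsets fitted to region strength, described below. Some cell type markers moved too: among 7 neuron genes Neurod6 rose while Prox1 and Gad1 fell in KO, 3 of 5 vascular genes fell (Kdr, Flt1 and Cldn5), and 1 of 4 astrocyte genes (Gfap) and 1 of 5 microglial genes (P2ry12) rose. The other astrocyte and microglial genes did not pass the test, and 2 of 4 and 1 of 5 changes in these lists were below 0. None of 5 genes of the oligodendrocyte lineage passed, and all 5 changes were below 0. By the same test 13.9% of all 35955 regions fell and 18.1% rose, so 1 rise among 4 or 5 genes is near that share. In bulk tissue, fewer cells of a type and less mark per cell cannot be told apart.

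The promoters that carry these marks are shown for 4 genes around which the results turn: Ndufs4 and Ndufs5, with the largest falls in KO, Ndufv1, the core subunit gene with the largest fall, and Ndufs8, the core subunit gene that did not fall. RefSeq (GRCm38.p6) gave promoter entries for 33 of the 36 genes (all but Ndufa2, Ndufb9 and Ndufs1). The printed sequences are the 250 bases before the start, 5′ to 3′ on the gene's strand, which is minus for all 4. Their positions are chr13:114388095-114388344, chr4:123718187-123718436, chr19:4012756-4013005 and chr19:3912775-3913024, in this order. Capitals mark the NRF1 core in Ndufs5 and an E-box in Ndufv1.
Ndufs4 upstream: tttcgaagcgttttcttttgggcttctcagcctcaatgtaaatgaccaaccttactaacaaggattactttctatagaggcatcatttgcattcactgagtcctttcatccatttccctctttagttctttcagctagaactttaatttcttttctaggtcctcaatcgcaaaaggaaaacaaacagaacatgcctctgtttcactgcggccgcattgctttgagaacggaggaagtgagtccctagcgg
Ndufs5 upstream: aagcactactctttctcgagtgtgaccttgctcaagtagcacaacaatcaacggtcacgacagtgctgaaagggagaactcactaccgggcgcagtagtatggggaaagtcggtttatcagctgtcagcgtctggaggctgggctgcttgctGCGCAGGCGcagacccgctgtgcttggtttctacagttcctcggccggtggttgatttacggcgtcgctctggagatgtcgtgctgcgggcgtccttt
Ndufv1 upstream: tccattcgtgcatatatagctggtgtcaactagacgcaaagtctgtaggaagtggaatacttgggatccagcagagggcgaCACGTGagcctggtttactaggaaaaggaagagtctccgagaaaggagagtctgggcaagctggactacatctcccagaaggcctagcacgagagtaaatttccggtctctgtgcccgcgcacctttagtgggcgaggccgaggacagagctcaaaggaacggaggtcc
Ndufs8 upstream: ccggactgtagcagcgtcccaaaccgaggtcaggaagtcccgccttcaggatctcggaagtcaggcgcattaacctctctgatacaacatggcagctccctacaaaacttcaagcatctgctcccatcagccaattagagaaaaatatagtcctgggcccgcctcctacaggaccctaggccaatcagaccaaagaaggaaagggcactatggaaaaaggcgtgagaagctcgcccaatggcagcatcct

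Short elements known from promoters of respiratory-chain genes were searched on both strands of the 300-base entries (250 bases before to 50 after the start). The NRF1 core GCGCANGCG, read by nuclear respiratory factor 1, was in 8 of 33 entries (24.2%), against 6.47% of all 27025 promoters. The YY1 core AAGATGGC was in 7 (21.2%), against 2.88% of all promoters. The ETS core CCGGAAG, read by GABP among other factors, was in 4 (12.1%) against 9.12%, the GC box GGGCGG in 15 (45.5%) against 35.9%, and the E-box CACGTG in 2 (6.06%) against 7.24%. The ERR element TCAAGGTCA was in 0 of 33, against 0.407%. At least one of the NRF1, YY1 and ETS cores was in 18 of 33 entries. These promoters were also richer in GC, with a median of 59.0% against 52.7%, and in CpG, with a median observed over expected ratio of 0.782 against 0.389. Such matches describe letters in a window and are not evidence of binding.

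Windows of 30 bases show the NRF1 core in capitals on the gene's own strand in 5 of the 8 genes, to compare the bases on either side of it.
Ndufa5 (chr6:24527697-24527726, - strand): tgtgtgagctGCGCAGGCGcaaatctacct
Ndufa11 (chr17:56717692-56717721, + strand): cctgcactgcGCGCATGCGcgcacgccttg
Ndufb4 (chr16:37654371-37654400, - strand): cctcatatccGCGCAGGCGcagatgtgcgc
Ndufb10 (chr17:24724406-24724435, - strand): tcacctttctGCGCAGGCGtagaggtcccg
Ndufs5 (chr4:123718265-123718294, - strand): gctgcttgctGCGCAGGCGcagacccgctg
In 4 of these windows the core reads GCGCAGGCG, and in Ndufa11 it reads GCGCATGCG, which also matches on the other strand 1 base further on, so the 2 matches overlap. Ndufb4 held 3 matches, of which the one nearest to the gene start by coordinate is shown.

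The YY1 core is shown for all 7 genes in the same way; each match lies on the gene's own strand, after the start.
Ndufa3 (chr7:3617384-3617413, + strand): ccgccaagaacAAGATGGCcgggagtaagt
Ndufa9 (chr6:126849097-126849126, - strand): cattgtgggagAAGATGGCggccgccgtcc
Ndufb8 (chr19:44555393-44555422, - strand): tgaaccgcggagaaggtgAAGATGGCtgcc
Ndufc1 (chr3:51408915-51408944, - strand): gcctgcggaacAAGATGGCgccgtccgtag
Ndufs4 (chr13:114388045-114388074, - strand): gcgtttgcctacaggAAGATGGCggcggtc
Ndufs6 (chr13:73328433-73328462, - strand): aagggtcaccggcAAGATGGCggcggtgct
Ndufs7 (chr10:80249462-80249491, + strand): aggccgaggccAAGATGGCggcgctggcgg
The element contains ATG, and whether any of these is a start codon was not looked at. Ndufs6 held both an NRF1 and a YY1 core.

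H3K4me3 at the complex I genes was strong. Mean levels over the 12 libraries ran from 46.7 CPM at Ndufa3 to 146 CPM at Ndufb6, with a median of 80.4 CPM, against a median of 44.0 CPM over 16365 gene-end regions of other genes. Each gene lay above the middle of those regions, at percentiles 52.1 to 98.2 of mean level. The regions were 1215 bp (Ndufc1) to 2832 bp (Ndufa13) wide. Per kb of region, the mean level ran from 22.2 CPM at the X-linked Ndufa1 to 62.1 CPM at Ndufs1, with a median of 45.8 CPM, against 27.8 CPM at other gene ends. Ndufb11, the other X-linked gene, was next lowest with 28.3 CPM per kb, followed by Ndufa13 with 33.3 CPM per kb. Ndufv2 (60.7) and Ndufb6 (59.1 CPM per kb) followed Ndufs1 at the top, but these regions lie at the starts of neighbouring genes. At their own starts the means were 116 CPM (55.3 CPM per kb) for Ndufv2 and 92.2 CPM (55.7 CPM per kb) for Ndufb6. The Ndufs1 region also lies within 2 kb of an end of Eef1b2, and without a promoter entry its start could not be checked. The order of levels per kb was similar in all groups (Spearman 0.921 to 0.987 across the 36 genes, which share libraries). Within a group, the SD over the mean of the 2 libraries had a median of 2.68%, with 15.6% as the highest.

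Loss of Kdm5c was accompanied by a small fall of H3K4me3 at most complex I genes. Averaged over standard conditions and novelty, 20 of 36 genes fell in KO (adjusted p under 0.05), 1 rose (Ndufa13) and 15 did not pass the test. Over all 35955 regions tested, 13.9% fell and 18.1% rose. The median log2 change of the 36 genes was -0.12 (KO over WT), and 34 of the 36 changes were below 0. In 19 genes all 4 KO libraries lay below all 4 WT libraries, and in 1 they lay above, which is 52.8% and 2.78% of the genes, against 42% and 4.40% of other gene-end regions of like strength and 13.8% and 17.1% of all regions. Summed over the 36 genes, the level was 2961 and 2879 CPM in KO and 3111 and 3165 CPM in WT under standard conditions. After novelty it was 2890 and 2922 CPM in KO and 3009 and 3142 CPM in WT, so that every KO sum lay below every WT sum. Without the second WT library after novelty 11 genes fell, and without the second WT library under standard conditions 13. All changes below are log2 values ± SE.

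**Figure D1:**
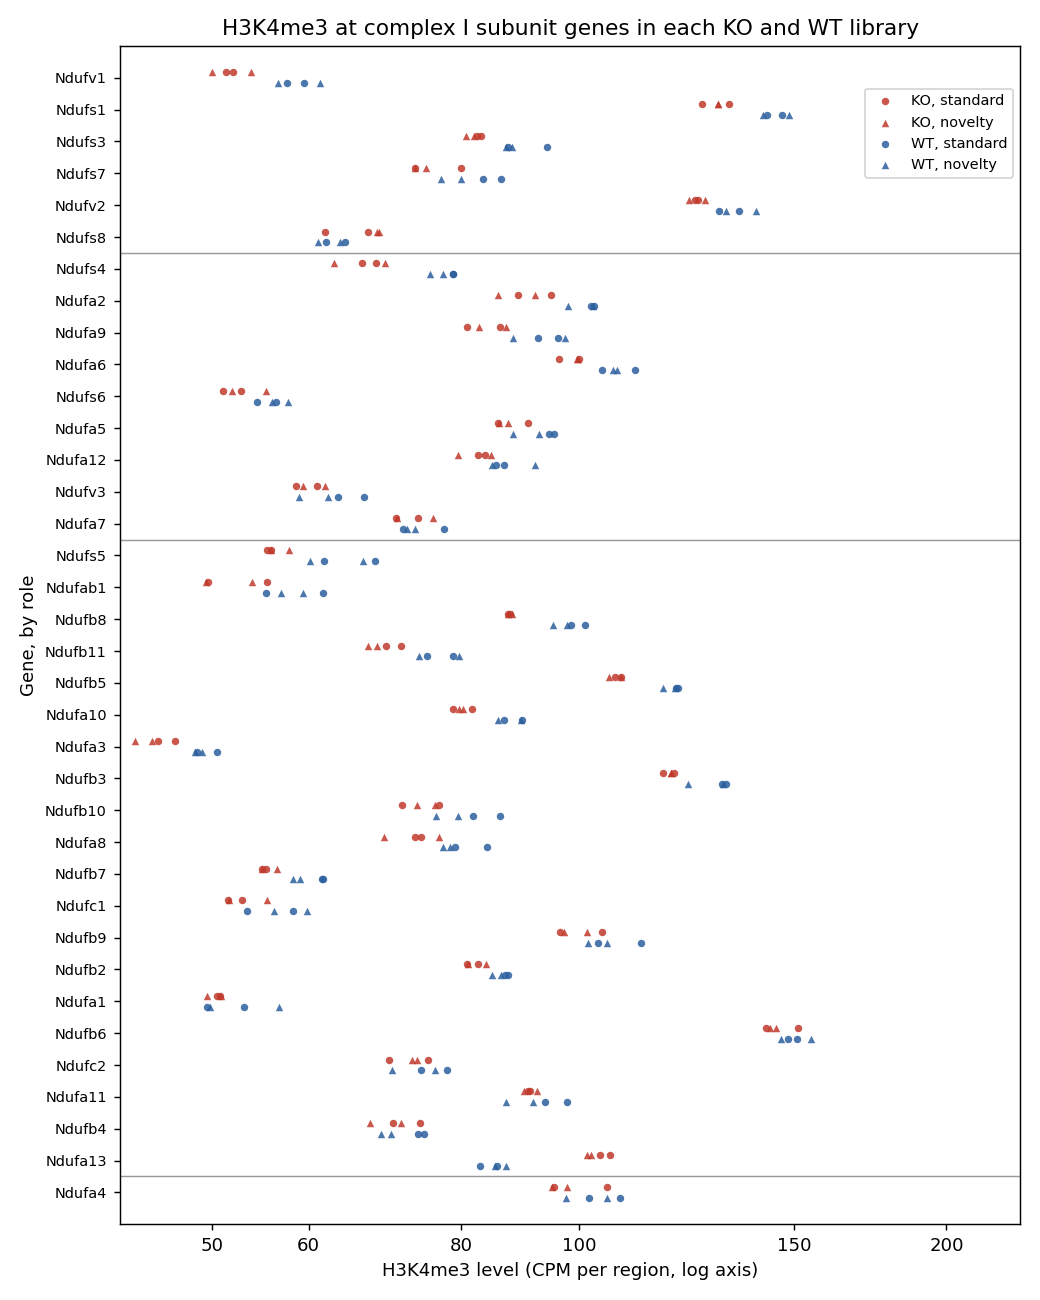
H3K4me3 level of each complex I gene in CPM (log axis) in the 4 KO and 4 WT libraries, 1 point per library, grouped by role from the top (core, matrix arm, membrane arm, Ndufa4) and sorted by change. KO points lie to the left of all WT points in 19 genes and to the right in Ndufa13 alone.

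Many other strong gene-end regions fell in KO as well. Among 16365 gene-end regions of other genes, 25.4% fell and 12.9% rose, with a median of -0.06. Among the 7949 of them in the strength range of the complex I genes (5.5 to 7.5 log2 CPM), weighted to the same distribution of strength, 43.3% fell, 4.64% rose and 83.8% of changes were below 0, with a median of -0.09. The complex I share that fell was 55.6%, nearer to that of gene ends of like strength than to that of all regions. When offsets were fitted to region strength in each library, 3 complex I genes fell (Ndufs4, Ndufs5 and Ndufv1), 2 rose (Ndufa13 and Ndufs8), and the median change was -0.04. It was -0.13 with RLE factors and -0.07 with library totals. With these offsets 9.66% of all regions fell and 14.2% rose, and at gene ends of like strength 11.6% fell and 11.5% rose, with a median of -0.02.

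**Figure D2:**
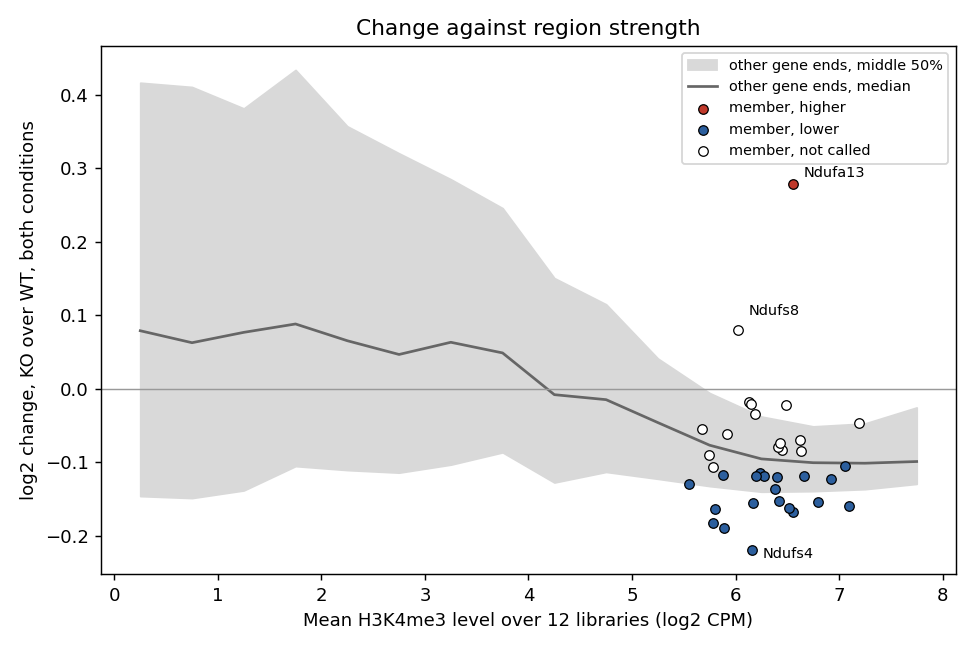
The log2 change in KO over WT, averaged over both conditions, against mean H3K4me3 level in log2 CPM, with complex I genes as points and gene-end regions of other genes as a median line and a band from the 25th to the 75th percentile in bins of 0.5. The line passes below 0 as strength grows and reaches -0.10 between 6.5 and 7.0 log2 CPM, where most complex I points lie close to or under it and Ndufa13 lies far above it.

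Of the 6 core subunit genes, 5 fell in KO (83.3%), against 43.3% of gene ends of like strength and 13.9% of all regions. With strength offsets Ndufv1 was the only 1 of the 6 that fell. Ndufv1, which encodes the subunit that binds NADH and the flavin, had 52.0 and 51.3 CPM in KO and 57.6 and 59.4 CPM in WT under standard conditions. After novelty it had 53.8 and 49.97 CPM in KO and 56.6 and 61.4 CPM in WT. The 4 KO libraries lay below the 4 WT libraries, and the change was -0.18 ± 0.05 (adjusted p = 0.00373), or -0.13 with strength offsets (adjusted p = 0.0218). Ndufs1, whose product is the largest iron-sulfur subunit, averaged 129.6 ± 2.69 CPM in KO against 145 ± 3.35 CPM in WT, without overlap. Its change was -0.16 ± 0.04 (adjusted p = 0.00175). Ndufs3, a subunit of the quinone-binding module, averaged 82.0 ± 0.966 CPM in KO and 89.1 ± 3.37 CPM in WT, also without overlap, a change of -0.12 ± 0.04 (adjusted p = 0.0165). Ndufv2, an iron-sulfur subunit beside Ndufv1, changed by -0.11 ± 0.04 (adjusted p = 0.0267) in its region at Ankrd12. Ndufs7, which carries the last cluster before ubiquinone, changed by -0.11 ± 0.04 (adjusted p = 0.0394), with 1 KO library inside the WT range.

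Ndufs8, another iron-sulfur subunit of the quinone module, was the exception among the core genes. It had 67.1 and 61.9 CPM in KO and 62.0 and 64.3 CPM in WT under standard conditions. After novelty it had 68.3 and 68.5 CPM in KO and 61.0 and 63.7 CPM in WT. The libraries overlapped under standard conditions and were apart after novelty, with KO higher. After novelty KO lay above WT without overlap in 2 of the 36 genes, against 9.41% of gene ends of like strength. Over all 35955 regions it did so in 11143. The averaged change of Ndufs8 was 0.08 ± 0.04 (adjusted p = 0.139), and with strength offsets it was 0.14 (adjusted p = 0.00676, 0.00676 to 0.602 over the alternatives tried). This region is shared with the end of Aldh3b1.

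Of the 9 accessory genes of the matrix arm, 4 fell in KO (44.4%) and none rose. This share was near the 43.3% that fell at gene ends of like strength, and over all regions 13.9% fell. With strength offsets 1 of the 9 fell. Ndufs4, which stabilises the NADH-oxidising module, had the largest fall of the 36. Its level was 66.4 and 68.1 CPM in KO and 78.8 and 78.8 CPM in WT under standard conditions. After novelty it was 63.0 and 69.3 CPM in KO and 75.4 and 77.3 CPM in WT. All KO libraries lay well below all WT libraries, and the change was -0.22 ± 0.04 (adjusted p = 9.89e-05), or -0.15 with strength offsets (adjusted p = 0.00406). Under all 23 alternatives tried it was called. Ndufa2, a subunit of the NADH-oxidising module, averaged 90.4 ± 3.84 CPM in KO and 101 ± 2.38 CPM in WT, without overlap, a change of -0.17 ± 0.04 (adjusted p = 0.00281). Ndufa9, which supports the junction of the arms near the quinone site, averaged 84.2 ± 2.95 CPM in KO and 93.6 ± 4.13 CPM in WT, a change of -0.15 ± 0.04 (adjusted p = 0.00384). Ndufa6, a subunit that holds the acyl carrier protein, changed by -0.12 ± 0.04 (adjusted p = 0.0137). The other 5 (Ndufs6, Ndufa5, Ndufa12, Ndufv3 and Ndufa7) had changes of -0.09 to -0.02 and did not pass the test.

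Of the 20 accessory genes of the membrane arm, 11 fell in KO (55.0%) and 1 rose (5.0%). At gene ends of like strength 43.3% fell and 4.64% rose, and over all regions 13.9% and 18.1%. With strength offsets 1 of the 20 fell (Ndufs5) and 1 rose (Ndufa13). Ndufs5, which encodes a disulfide-bonded subunit on the intermembrane side, had 55.4 and 55.9 CPM in KO and 61.8 and 67.97 CPM in WT under standard conditions. After novelty it had 55.9 and 57.9 CPM in KO and 60.2 and 66.5 CPM in WT. The WT libraries spread more than the KO libraries but stayed above them, and the change was -0.19 ± 0.04 (adjusted p = 0.00134; -0.13 with strength offsets, adjusted p = 0.0127). Ndufb8, a subunit of the distal membrane arm, had 87.3 and 87.7 CPM in KO and 101 and 98.5 CPM in WT under standard conditions. After novelty it had 88.1 and 87.5 CPM in KO and 95.2 and 97.7 CPM in WT. The 4 KO libraries lay within 1 CPM of each other and below all WT libraries, a change of -0.16 ± 0.04 (adjusted p = 0.00112). Ndufb5, also of the distal arm, averaged 107 ± 1.23 CPM in KO and 119 ± 1.51 CPM in WT, a change of -0.15 ± 0.04 (adjusted p = 0.00124).

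The X-linked Ndufb11, a membrane-arm subunit gene, averaged 69.0 ± 1.84 CPM in KO and 76.9 ± 2.84 CPM in WT, a change of -0.16 ± 0.04 (adjusted p = 0.00304). The other X-linked gene, Ndufa1, needed for assembly of the membrane arm, averaged 50.4 ± 0.581 CPM in KO and 52.3 ± 3.38 CPM in WT, with overlap, and did not pass the test (-0.06 ± 0.05, adjusted p = 0.401). Ndufa10, whose product has a kinase-like fold, averaged 80.1 ± 1.19 CPM in KO and 88.0 ± 1.96 CPM in WT, a change of -0.14 ± 0.04 (adjusted p = 0.0066). Ndufab1, the acyl carrier protein of mitochondria, averaged 52.1 ± 3.04 CPM in KO and 58.4 ± 2.76 CPM in WT. Its change was -0.16 ± 0.05 (adjusted p = 0.0123), although KO and WT libraries overlapped. The other 5 that fell were Ndufb3 (-0.12), Ndufa3 (-0.13), Ndufa8 (-0.12), Ndufb10 (-0.12) and Ndufb7 (-0.12). Among those that did not pass, Ndufb4 (-0.02), Ndufa11 (-0.02) and Ndufc2 (-0.03) had changes nearest to 0.

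Ndufa13, also known as GRIM-19, a subunit at the junction of the arms, was the only complex I gene to rise. It had 106 and 104 CPM in KO and 85.6 and 82.9 CPM in WT under standard conditions. After novelty it had 102 and 101 CPM in KO and 87.1 and 85.4 CPM in WT. Every KO library lay far above every WT library, and the change was 0.28 ± 0.04 (adjusted p = 4.73e-07, and 1.44e-09 to 2.68e-05 over the 23 alternatives). Its region, chr8:69901003-69903835 as deposited, is the widest of the 36 and also holds the start of Tssk6, which encodes a kinase of the testis. The RefSeq starts are at 69902020 on the minus strand for Ndufa13 and at 69902184 on the plus strand for Tssk6. The count covers the whole region, so the gain cannot be assigned to either gene.

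Ndufa4 had 105 and 95.4 CPM in KO and 102 and 108 CPM in WT under standard conditions, with overlap. The averaged change of -0.07 ± 0.04 did not pass the test (adjusted p = 0.185).

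**Figure D3:**
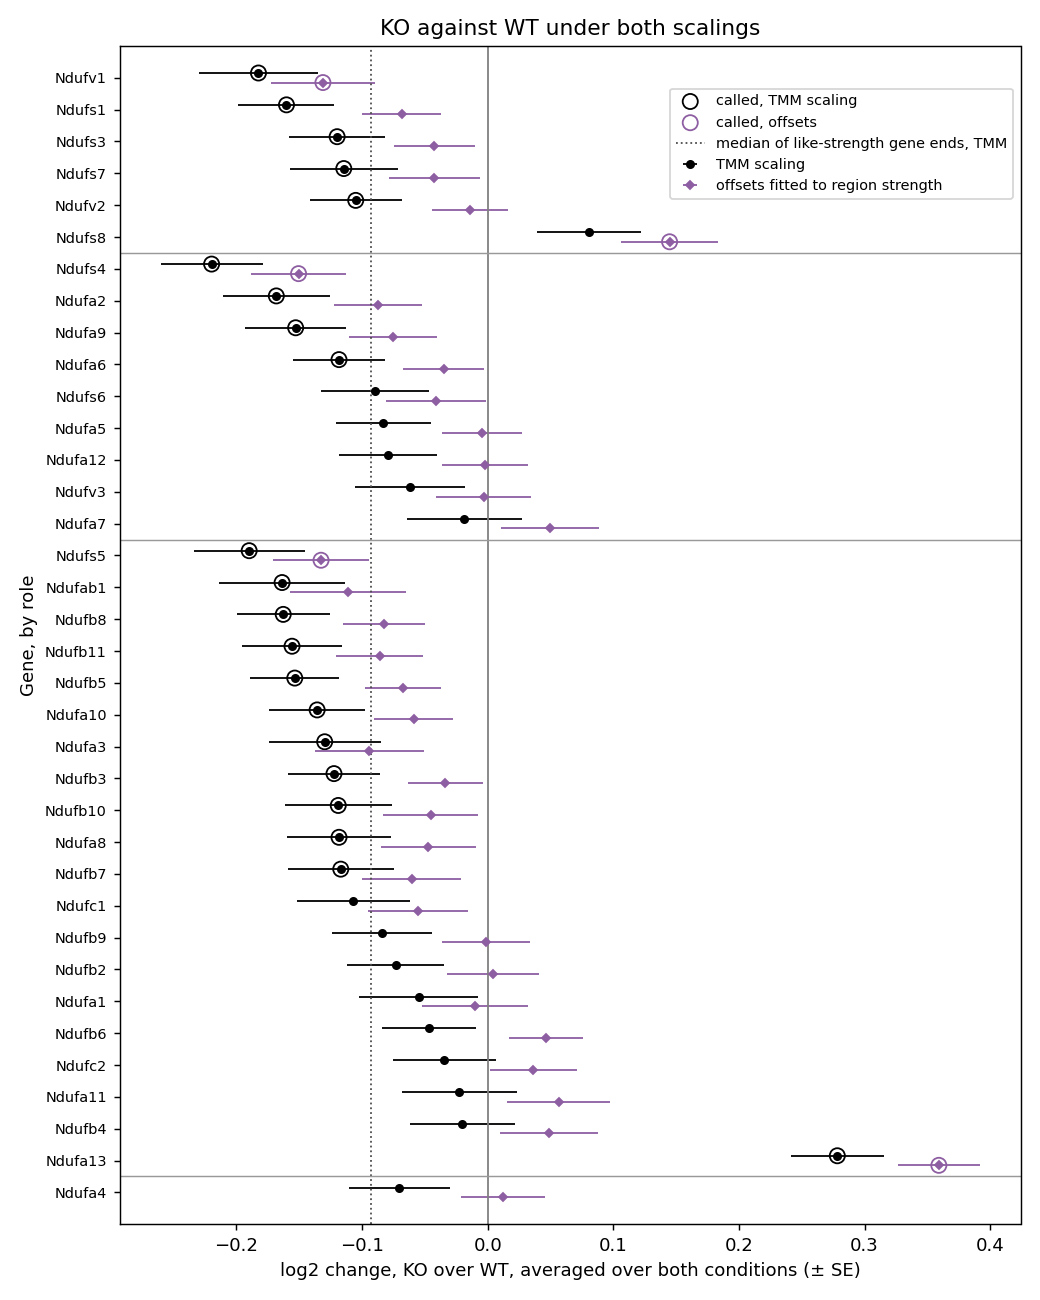
The log2 change in KO over WT averaged over both conditions (± SE), gene by gene and by role, with TMM scaling (black) and with offsets fitted to region strength (purple), where rings mark called genes and the dotted line is the median of gene ends of like strength (-0.09). With TMM 21 genes are ringed, with the offsets 5, and Ndufa13 lies to the right of all others with both.

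The region with the most counts was not at the gene's own start in 3 of the 33 genes with a RefSeq start. For Ndufb6 it lay at the shared start of Topors and Smim27, 384 bp from the end of Ndufb6, for Ndufb10 at Rps2 (1115 bp away) and for Ndufv2 at Ankrd12 (971 bp away). The regions at their own starts were weaker and fell in all 3 genes. At the start of Ndufb6 the level was 90.2 ± 1.13 CPM in KO against 100.3 ± 3.22 CPM in WT (-0.15 ± 0.04, adjusted p = 0.00263). At the start of Ndufb10 it was 52.8 ± 0.869 CPM in KO against 58.9 ± 2.5 CPM in WT (-0.16 ± 0.04, adjusted p = 0.0041). At the start of Ndufv2 it was 113 ± 4.23 CPM in KO against 121 ± 6.25 CPM in WT (-0.10 ± 0.04, adjusted p = 0.0404). With start regions in place of the others, 21 of the 36 genes fell. In all, 23 of the 36 regions also lay within 2 kb of an end of another gene, and a change there cannot be assigned to either gene. Among those that fell these include Ndufs1 (Eef1b2), Ndufa2 (Ik and Tmco6), Ndufb5 (Mrpl47), Ndufb3 (Fam126b) and Ndufb11 (Rbm10).

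Under standard conditions alone, 8 of 36 genes fell in KO and 1 rose, against 3.67% and 9.74% of all regions. Those that fell were Ndufs1, Ndufs4, Ndufa9, Ndufs5, Ndufb8, Ndufb5, Ndufb3 and Ndufb10, with Ndufs4 changing most (-0.23 ± 0.06, adjusted p = 0.00661), and Ndufa13 rose (0.32 ± 0.05, adjusted p = 4.56e-05). The median change was -0.12, and at gene ends of like strength 11.8% of regions fell. Leaving out 1 of the 4 libraries of the comparison left 0 or 1 gene lower. After novelty, 5 genes fell (Ndufs1, Ndufs4, Ndufa2, Ndufb5 and Ndufb11) and Ndufa13 rose, against 5.94% and 11.1% of all regions. Ndufs4 again changed most (-0.21 ± 0.06, adjusted p = 0.00994), Ndufa13 changed by 0.24 ± 0.05 (adjusted p = 0.00126), and the median change was -0.09. At gene ends of like strength 19.8% fell. Without the first KO library or the second WT library of the novelty groups 0 genes fell, without the second KO library 1, and without the first WT library under standard conditions 2. For one region and 2 libraries a group, an exact permutation test cannot go below the threshold, and these p values draw on the spread pooled over all 6 groups.

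In the ifKO line, 0 of 36 genes passed the test, against 5.38% of all regions. The median change of the 36 genes was -0.07 (ifKO over ifWT), and 28 of 36 changes (77.8%) were below 0. Gene ends of like strength also had a median of -0.07, with 80% of changes below 0, and with strength offsets the median of the 36 genes was -0.01. By edgeR 8 genes had an unadjusted p under 0.05 (7 lower and 1 higher), or 22.2% against 18.7% of all regions, and DESeq2 and limma-voom also called 0. Summed over the 36 genes the level was 2800 and 2865 CPM in ifKO and 2984 and 2911 CPM in ifWT, without overlap. The summed oligodendrocyte and vascular markers were also lower in both ifKO libraries than in both ifWT libraries. For the vascular markers the groups nearly touched, with 125.3 CPM as the highest sum in ifKO and 125.5 CPM as the lowest in ifWT. Ndufs5 had 53.3 and 53.5 CPM in ifKO and 62.3 and 59.1 CPM in ifWT, a change of -0.18 ± 0.07 (adjusted p = 0.103). Ndufa13 had 99.8 and 96.9 CPM in ifKO and 91.8 and 87.6 CPM in ifWT, a change of 0.13 ± 0.05 (adjusted p = 0.159; 0.20 with strength offsets, adjusted p = 0.0111). Both were apart from their controls in the same direction as in KO. Such a separation was common: 14 of the 36 genes lay below in ifKO and 2 above. At gene ends of like strength it was 45.1% and 7.65%, and over all 35955 regions 8017 lay below and 7827 above. Ndufs4 had 69.6 and 65.5 CPM in ifKO and 72.1 and 72.0 CPM in ifWT, and changed by -0.09 ± 0.06 (adjusted p = 0.438). The region at the start of Ndufb6 fell in ifKO (-0.19 ± 0.06, adjusted p = 0.0381).

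**Figure D4:**
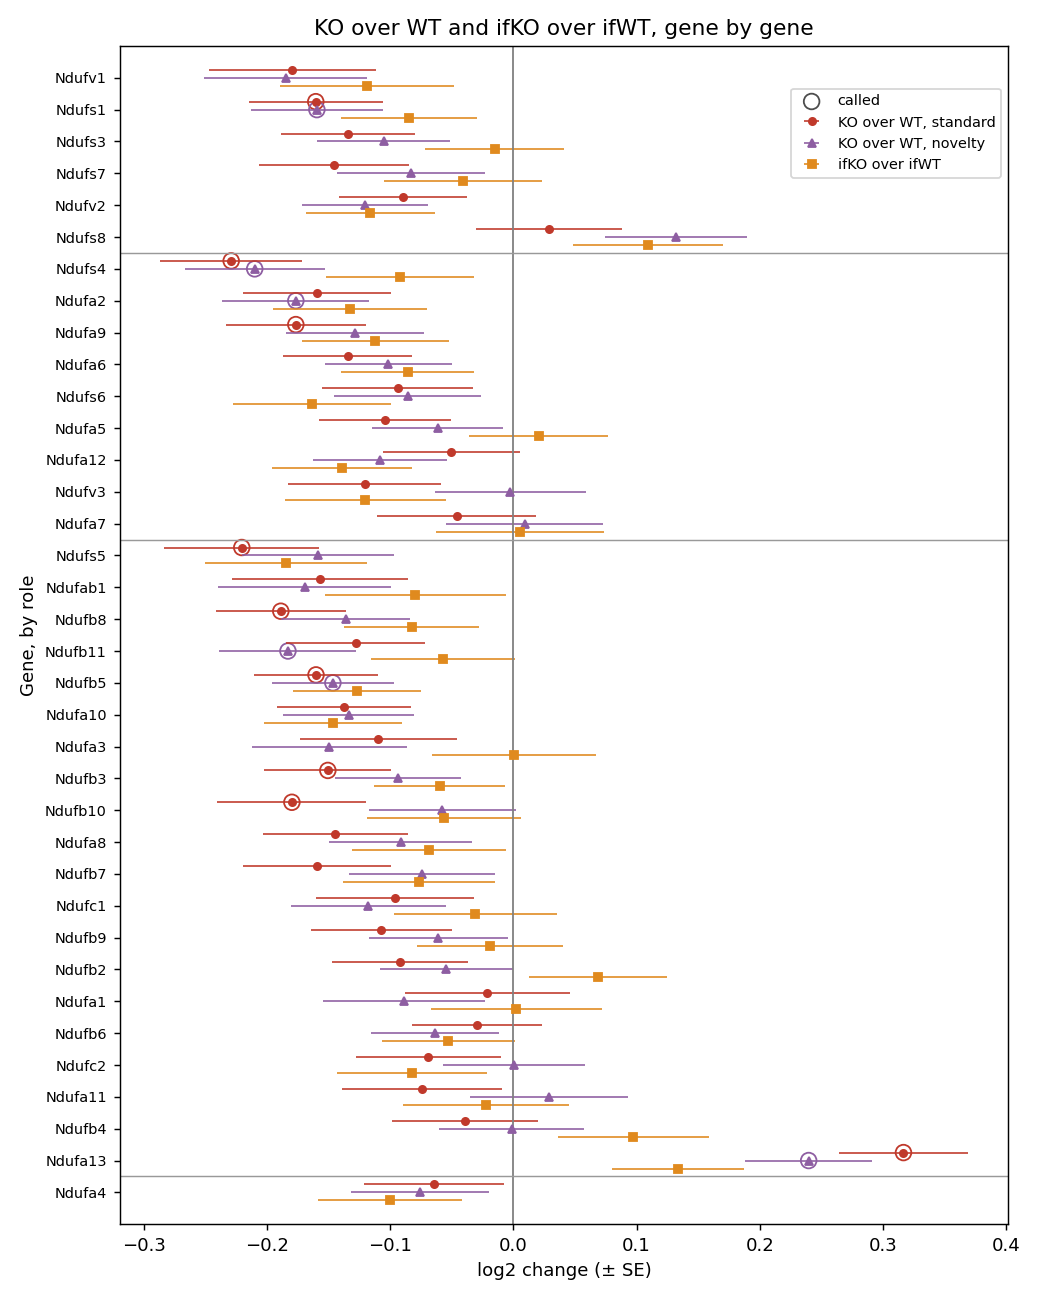
Log2 changes (± SE) of each complex I gene in KO over WT under standard conditions, in KO over WT after novelty and in ifKO over ifWT, with rings around called genes. Ndufa13 is above 0 in all 3 comparisons, Ndufs4, Ndufs5 and Ndufv1 are below 0 in all 3, and no ifKO point is ringed.

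The effects were also compared directly. The difference between the KO effect (standard conditions) and the ifKO effect passed the test in 0 of 36 genes, against 0.701% of all regions (2 genes at an unadjusted p under 0.05, against 8.46% of all regions; 0 called by DESeq2 and limma-voom), with a median of -0.06 for KO minus ifKO. Novelty against standard conditions, averaged over KO and WT, called 0 of 36 genes, against 0.0473% of all regions, and 0 genes had an unadjusted p under 0.05. The interaction of genotype and novelty called 0 of 36, against 0% of all regions, again with 0 at an unadjusted p under 0.05. DESeq2 and limma-voom called 0 in both. A difference between the lines or between the conditions was therefore not detectable at any of these genes with 2 libraries a group.

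Kdm5C itself was measured over 2321 regions as covered bases, with 1 library per genotype and hence no test. Regions of that set overlapped 6 of the 36 complex I regions (16.7%), against 12.0% of gene ends of other genes, 21.9% of those of like strength and 6.43% of all regions. The 6 genes were Ndufa3, Ndufa8, Ndufa11, Ndufa13, Ndufb6 (at Topors) and Ndufs8. Coverage in KO was lower than in WT at each of them. Ndufs8 had 265 covered bases in KO and 2661 in WT, and its Kdm5C region, chr19:3912522-3913004 as deposited, reaches into the promoter printed above. Ndufa11 had 50 in KO and 1842 in WT, over chr17:56717316-56717744, which covers the NRF1 core shown for this gene. Ndufa13 had 2 Kdm5C regions, with 0 in KO and 803 in WT for one and 900 in KO and 2889 in WT for the other, which lies within Tssk6. Ndufb6 had 693 in KO and 2933 in WT, Ndufa3 had 290 in KO and 1185 in WT, and Ndufa8 had 200 in KO and 910 in WT. Over the 2207 regions with coverage in KO the WT to KO ratio had a median of 4.71, and regions with 0 in KO have no ratio.

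Both complex I genes with a positive change, Ndufa13 and Ndufs8, were among the 6 that overlapped Kdm5C regions, as was Ndufa11 with a change near 0. The median H3K4me3 change in KO was -0.03 in the 6 (2 fell, 1 rose) and -0.12 in the other 30 (18 fell, none rose), given as a description of a small and uneven split. Over 1971 overlapping gene ends of other genes the median was -0.06, and 592 of them fell and 228 rose. Among the 16365 gene ends of other genes, overlapping or not, the median was also -0.06, with 25.4% lower and 12.9% higher. The overlapping gene ends were mostly strong, with 1712 of the 1971 in the strength range of the complex I genes. Gene ends of like strength to the complex I genes had a median of -0.09, with 43.3% lower and 4.64% higher. No gene ends matched in strength to the overlapping ones were compared, so whether an overlap goes with a different change was not tested. H3K4me1 at these 6 genes reached at most 300 covered bases in KO (Ndufb6) and 606 in WT (the Tssk6 side of Ndufa13).

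Genes of the other respiratory complexes also fell in KO, averaged over both conditions, as did 43.3% of gene ends of like strength to the complex I genes and 13.9% of all regions. Of 17 assembly factor genes of complex I, 8 fell (47.1%), with Ndufaf2 (-0.18 ± 0.04, adjusted p = 0.00145) and Ndufaf1 (-0.17 ± 0.04, adjusted p = 0.00282) lowest in p, and none rose. For complex II it was 3 of 4 (75%), led by Sdhb (-0.19), and for complex III 5 of 9 (55.6%), led by Uqcrc2 (-0.19) and Cyc1 (-0.18). In complex IV 7 of 8 fell (87.5%), led by Cox6a1 (-0.17) and Cox6c (-0.16). In complex V 6 of 15 fell (40.0%), led by Atp5pd (-0.14), and Atp5mc2, a subunit of the proton-carrying ring, rose (62.4 ± 2.38 CPM in KO and 55.6 ± 1.14 CPM in WT; 0.17 ± 0.04, adjusted p = 0.00326). Among 12 genes of regulators 6 fell (50%), among them Yy1 (-0.16), Nrf1 (-0.11) and Ppargc1a (-0.11). The medians of these lists, -0.14 to -0.10, lay around that of the complex I genes, and with strength offsets they were -0.07 (complex IV) to -0.01 (complex V). Gabpa among the regulators and Atp5pf of complex V share 1 region and 1 value. The shares of assembly factors, complex V and regulators lay near that of gene ends of like strength. In ifKO, 1 of 9 complex III genes fell (Cyc1, -0.20), 1 of 8 of complex IV (Cox4i1, -0.20) and 1 of 15 of complex V (Atp5pd, -0.19), against 0.976% of all regions and 3.37% of gene ends of like strength.

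**Figure D5:**
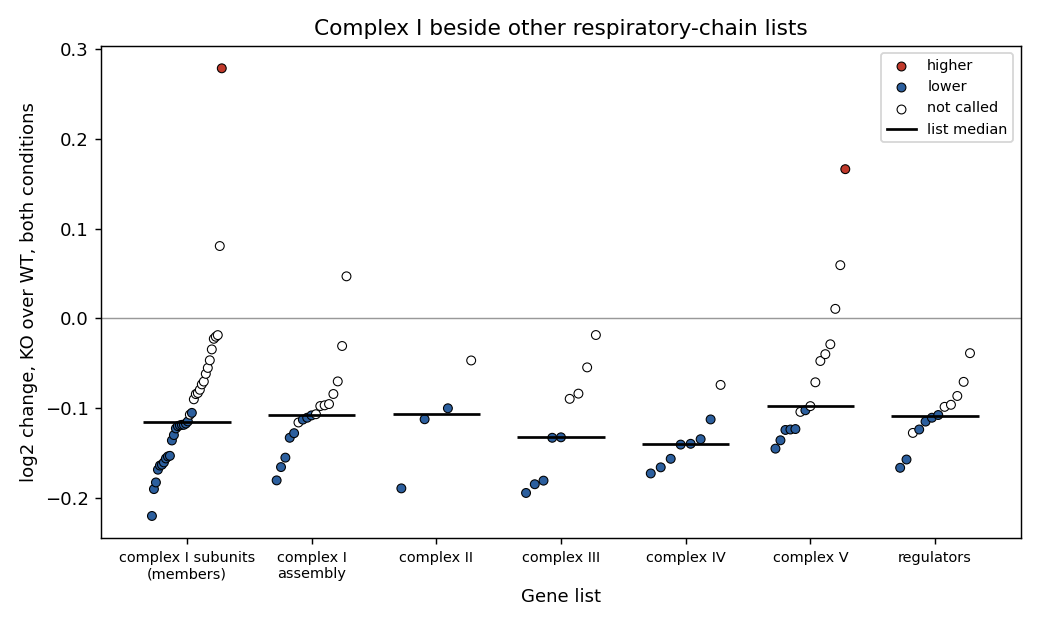
The log2 change in KO over WT, averaged over both conditions, for complex I genes and for 6 other lists, 1 point per gene in rising order, with list medians as bars and called genes filled. Most points of each list lie below 0, and Ndufa13 and Atp5mc2 are the only filled points above it.

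Cell type markers were set beside these changes. Summed over 7 neuron genes the level was 526 to 576 CPM in KO and 572 to 605 CPM in WT under standard conditions, and 546 to 559 CPM in KO and 529 to 599 CPM in WT after novelty, with overlap in both. Over 5 vascular genes it was 131 to 147 CPM in KO and 159 CPM in both WT libraries, and after novelty 127 to 140 CPM in KO and 151 to 152 CPM in WT. Over 5 microglial genes it was 24 to 27.96 CPM in KO and 21.7 CPM in both WT libraries under standard conditions, and 23.1 to 26.9 CPM in KO and 17.7 to 21.5 CPM in WT after novelty. Over 4 astrocyte genes it was 201 to 216 CPM in KO and 202 to 205 CPM in WT, and over 5 genes of the oligodendrocyte lineage 162 to 176 CPM in KO and 178 to 189 CPM in WT, both under standard conditions. After novelty the astrocyte sums were 188 to 198 CPM in KO and 184 to 192 CPM in WT, and the oligodendrocyte sums 169.6 to 170.5 CPM in KO and 177 to 178 CPM in WT. In the ifKO line the oligodendrocyte sums were 163 to 174 CPM in ifKO and 182 to 192 CPM in ifWT. The vascular sums were 118.1 to 125.3 CPM in ifKO and 125.5 to 136.9 CPM in ifWT. Foxj1, of ciliated ependymal cells, was the 1 gene of the choroid plexus and ependyma list with a region. It had 15.4 to 17.8 CPM in ifKO and 12.5 to 12.6 CPM in ifWT and rose (0.40, adjusted p = 0.0462). With strength offsets the change of Foxj1 was 0.34 and did not pass the test. The neuron, astrocyte and microglial sums overlapped between ifKO and ifWT. The part of these shifts in the changes at complex I genes was not tested.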

How the data were processed

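H3K4me3, Kdm5C and H3K4me1 were profiled by ChIP-seq in 16 hippocampal libraries. The deposited H3K4me3 files hold 1 raw read count per region, without normalization, for 36005 shared regions, of which 9 repeats were removed. The deposited Kdm5C and H3K4me1 files hold a signal per region that behaves as summed base coverage, with 50 covered bases read as 1 read. The submitters' processing notes name R 3.3, DESeq2 1.10.0, MACS2 2.1.0, SAMtools 1.3.1, Bowtie2 2.2.9 and, for Kdm5C and H3K4me1, featureCounts, on mm10. The sources used here do not say how regions were defined.

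All 12 H3K4me3 libraries were fitted together with edgeR 4.0.16 (R 4.3.3): 1 mean per group, TMM factors, filterByExpr (41 regions removed), quasi-likelihood F tests and Benjamini-Hochberg adjustment over 35955 regions, with a threshold of 0.05. Standard errors were derived from F. Gene ends came from RefSeq (GRCm38.p6). Regions of like strength were weighted to the 36 genes over bins of 0.5 log2 CPM. Offsets to region strength were loess curves per library (span 0.3). A floor of 3 counts is 0.0986 to 0.165 CPM, far below every level given, and covers counting error only. Alternatives used DESeq2 1.42.0, limma-voom (limma 3.58.1), other scalings, windows and filters, a replicate block, and leaving out each library; the steps were tested on simulated data.

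Named with values were the core genes, Ndufa4, Ndufab1, the X-linked genes, called genes, the strongest and weakest, and those overlapping Kdm5C regions. Other genes with shared ends were covered in part. Ndufb9 was given no value, and Ndufa5, Ndufa12, Ndufs6 and Ndufv3 only a range of changes. From other lists, up to 4 called genes by p were named. Atp5mc2, Ndufb4, Ndufc2, Yy1, Nrf1 and Ppargc1a were added after their values were seen. The 36 genes and all lists were chosen with earlier results of these data known.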

Additional observations from a re-analysis of the deposited data

How the results depend on the processing

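For KO against WT averaged over both conditions, 21 complex I genes were called in the fit reported (1 higher, 20 lower), 12 with library totals (10 lower) and 5 with offsets fitted to region strength. Under standard conditions the 9 calls became 3 with library totals and 1 with the offsets, and after novelty the 6 became 10 with RLE factors, 3 with library totals and 2 with the offsets. In ifKO the 0 calls became 1 with the offsets (Ndufa13, higher) and 1 with the region at the RefSeq start, an alternative chosen after seeing the data. Leaving out 1 library at a time gave 12 to 21 calls for the average, lowest without the second WT library after novelty, 1 to 10 under standard conditions and 1 to 7 after novelty, and 0 throughout for ifKO and for the other 3 comparisons. With 2 libraries a group, counts within a condition rest on each single library.

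With replicate numbers as a block, 21 genes were called for the average, 7 under standard conditions, 5 after novelty and 0 in ifKO. Deviations of same-numbered libraries correlated at -0.057 to 0.139, so the numbers do not pair the libraries.

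Changes of genes that were not called, all near 0, turned positive for the average in some settings. With library totals these were Ndufa7 (0.0225), Ndufa11 (0.0184), Ndufb4 (0.0205) and Ndufc2 (0.0068). With the offsets they were Ndufa4 (0.0124), Ndufa7 (0.0498), Ndufa11 (0.0567), Ndufb2 (0.0044), Ndufb4 (0.0488), Ndufb6 (0.0467) and Ndufc2 (0.0364). With the sum of all regions within 2 kb it was Ndufa11 (0.0007). Leaving out 1 library gave -0.0459 to 0.0089 for Ndufa7 and -0.0414 to 0.0015 for Ndufb4, positive for Ndufa7 without the second WT library under standard conditions and for both without the first KO library after novelty. Kdm5C regions overlapped 6 genes under both overlap rules and lay within 2 kb of an end of 7. Shortened by 1 base, the ETS core was in 30.3% of the complex I promoters against 15.2% of all promoters, and the GC box in 81.8% against 49%.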

Other observations

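The change in KO over WT, averaged over both conditions, was set beside other traits of the 36 genes. With TMM scaling it was not ordered by mean H3K4me3 level (Spearman 0.036) and only loosely by region width (0.166). Across 33 promoters it was not ordered by CpG ratio (-0.071). With strength offsets the Spearman values were 0.262 for level, 0.316 for width and -0.011 for CpG ratio. The genes share all libraries, so these values are descriptions.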
